A study of Homo sapiens with 12 samples.

Results

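Cassette exons are internal exons that a transcript can include or leave out. When the length of such an exon is not a multiple of 3, the 2 transcript forms are read in different frames behind it. Here the frame-shifting cassette exons of A549 cells were described. They were taken from the table of skipped-exon events as events whose exon is 28 to 300 nt long, is not divisible by 3 and has at least 20 reads of both forms together in each of the 6 libraries of a comparison. The rule uses length and read depth only. It gave 45561 events in at least 1 comparison, of 79782 skipped-exon events with the same read minimum and 96833 in all. They stand for 30894 distinct exons with a median length of 118 nt. An event is 1 exon together with the 2 exons that flank it, so an exon can belong to several events, which share reads.

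The cells were A549, a human lung adenocarcinoma line, infected with a lentivirus for a non-target hairpin, the group shControl, or for a hairpin that targets RNF113A, the group shRNF113A. RNF113A is a zinc finger protein of the spliceosome. All cells, controls included, were selected with puromycin at 1 µg/ml for 4 days and grown in DMEM with 10% serum. Each was left untreated or given Cisplatin, a platinum drug that crosslinks DNA, at 25 µg/ml for 20 h according to the labels, with 3 biological replicates in each of the 4 groups and 12 libraries in all. The methods name 1 shRNA construct against RNF113A. Figures of other experiments show a second, and the paper does not state which was sequenced. The sequenced depleted cells carry the single label shRNF113A, so effects of the gene and of the construct cannot be told apart, and the depletion was partial.

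Leaving out a coding exon of frame-shifting length usually brings a stop codon into frame early. A stop codon well upstream of the last exon junction marks an mRNA for nonsense-mediated decay (NMD), a cytoplasmic pathway in which a ribosome that terminates before an exon junction complex triggers destruction of the message. Exons that carry such a stop themselves are called poison exons, and many genes of RNA-binding proteins use them to limit their own expression. The inclusion level of an exon in steady-state RNA therefore reflects both splicing and the decay of each form.

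In the GENCODE annotation lifted to GRCh37, the build of the files, 23609 of the 30894 exons (76.4%) were coding. Another 2341 (7.58%) occurred only in transcripts annotated as NMD targets, against 4.74% of the 20674 frame-preserving cassette exons of the same lengths. Exons of non-coding transcripts only (1627), exons coding over part of their length (1607) and exons outside the reading frame of coding transcripts (1602, called untranslated below) made up most of the rest, and 108 were not in the annotation. Reading the annotated transcript without the exon put a stop codon more than 50 nt before the last junction for 19261 coding frame-shifting exons (81.6%), and for 216 (1.25%) of the coding frame-preserving ones. Of the exons of NMD transcripts only, 1600 (68.3%) held the annotated stop codon. The splice sites of the 30894 frame-shifting exons as a whole were ordinary, with AG before 99.9% of the exons and GT behind 98.6%.

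Sequences of exons that carry their own stop codon are shown for the genes to which the results below return, in the direction of transcription from GRCh37, with the annotated stop codon in capitals. The SAT1 exon lies at chrX:23802411-23802520 (plus strand), the NOP56 exon at chr20:2638019-2638134 (plus strand) and the HNRNPH1 exon at chr5:179046270-179046361 (minus strand). The stop codon starts at base 12, 16 and 51 of the 3 exons, counted from 1 at their 5′ ends.
SAT1: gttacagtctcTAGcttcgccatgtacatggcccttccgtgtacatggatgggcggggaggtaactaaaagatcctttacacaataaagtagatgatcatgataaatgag
NOP56: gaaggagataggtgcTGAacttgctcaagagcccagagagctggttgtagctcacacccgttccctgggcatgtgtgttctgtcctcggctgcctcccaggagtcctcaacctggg
HNRNPH1: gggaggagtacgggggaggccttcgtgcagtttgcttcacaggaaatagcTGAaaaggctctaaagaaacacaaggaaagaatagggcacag

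Most coding exons of the class act the other way round, since leaving them out creates an early stop codon. Shown are the bases of the 2 flanking coding exons, joined without the cassette exon and up to the first stop codon in frame (capitals), for exons of STX16 (163 nt, chr20:57244347-57244509, plus strand) and TANGO2 (115 nt, chr22:20040960-20041074, plus strand). The upstream exon gives 24 bases in STX16 and 25 in TANGO2. The new stop codon lies 311 nt before the last junction of the annotated STX16 transcript and 265 nt before that of TANGO2.
STX16: ataactacccaagagatcactcaggcaTGA
TANGO2: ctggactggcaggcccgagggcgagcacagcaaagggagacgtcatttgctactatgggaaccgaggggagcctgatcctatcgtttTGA

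The libraries held 33859097 to 56071514 read pairs, and the shRNF113A + Cisplatin libraries were the smallest, with 33859097 to 39414380. RNF113A had 709 to 743 normalised counts in untreated control cells and 555 to 612 in untreated depleted cells, and 997 to 1143 and 856 to 1051 after Cisplatin, where the ranges overlapped. The epithelial keratins KRT7, KRT8 and KRT18 were at 1113 to 7443 CPM, but KRT19 was at 0.673 to 5.337. The epithelial genes EPCAM and CDH1 were at 3.677 to 97.879 and 31.598 to 195.402. Of markers of blood, fibroblast and endothelial cells, PTPRC, CD3E, COL1A2, PDGFRB, PECAM1, VWF and CDH5 were at 0.479 or less. CD68, of blood cells, was at 27.983 to 72.894, and COL1A1, of fibroblasts, at 3.332 to 34.532. SFTPB and SFTPC, the surfactant genes of alveolar cells, were at 0.107 or less. The alveolar genes NAPSA and ABCA3 were at 1.49 to 4.482 and 50.635 to 73.355. The markers of a cell type thus did not all go the same way. In RNA from whole cultures, fewer cells of a kind and less RNA per cell cannot be told apart. A frame-shifting event had a median of 206 to 235 reads in a library, depending on the comparison.

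Most frame-shifting exons were included nearly always. Over the 22981 events with enough reads in all 12 libraries, the median inclusion level was 99.2% in control cells with or without Cisplatin, 98.9% in untreated depleted cells and 98.7% in depleted cells given Cisplatin. The share of events at 95% inclusion or more was 74.8%, 75.6%, 73.3% and 72.0% in the same order, and the share between 5% and 95% went from 14.9% in untreated control cells to 18.7% in depleted cells given Cisplatin. Frame-preserving exons followed the same order, with 73.03%, 74.0%, 71.8% and 70.8% of 15578 events at 95% or more.

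The mean inclusion level was also taken by class of exon. The mean inclusion level of 16963 events on coding exons was 96.57% to 96.69% over the 3 untreated control libraries and 96.68% to 96.74% with Cisplatin, 96.25% to 96.27% in untreated depleted cells and 95.88% to 96.13% in depleted cells given Cisplatin. Both depleted groups were below both control groups with no overlap, and in depleted cells the Cisplatin libraries were below the untreated ones. For exons of NMD transcripts only, with 1892 events, the mean was 31.98% to 32.18% in untreated control cells, 32.38% to 32.76% with Cisplatin, 32.27% to 32.31% in untreated depleted cells and 32.81% to 32.95% in depleted cells given Cisplatin, with treated libraries above untreated ones, without overlap, in both kinds of cells. Untranslated exons (1524 events) stood at 44.39% to 44.99%, 44.90% to 45.56%, 44.20% to 44.63% and 45.71% to 45.88%, with the highest levels in depleted cells given Cisplatin. These shifts of under 2 points are means over many exons that share libraries, and were not tested. Of the events on exons of NMD transcripts only, 23.4% were at 95% inclusion or more in untreated control cells. Reads of an overlapping coding exon count as inclusion if they lie in the exon. Their part in these means was not tested.

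**Figure D1:**
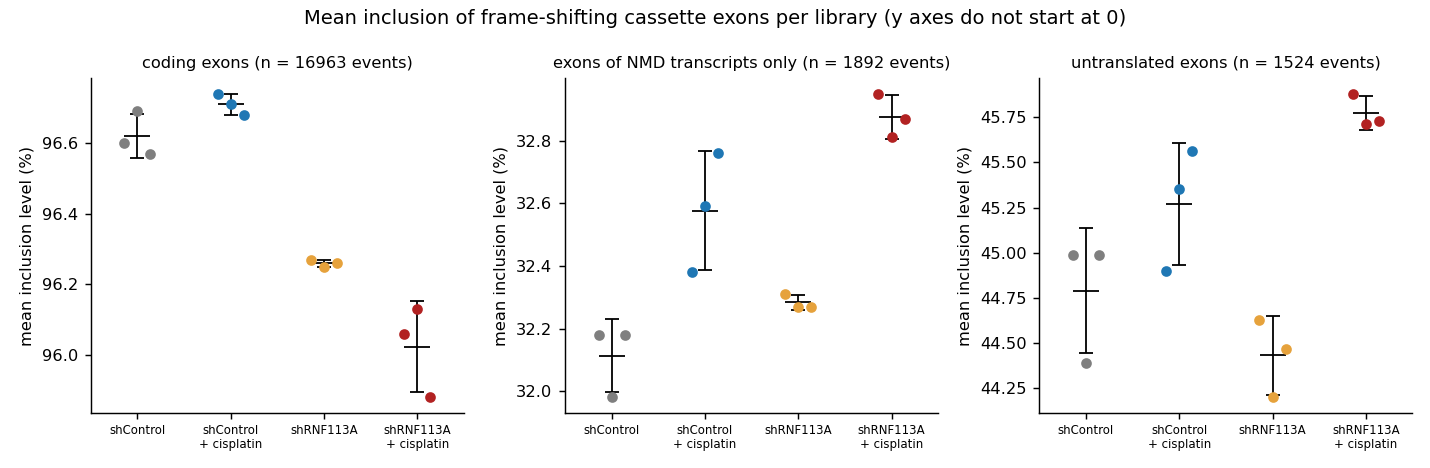
Mean inclusion level (%) of frame-shifting cassette exons in each of the 12 libraries, for coding exons, exons of NMD transcripts only and untranslated exons. Points are libraries, black bars are the mean and SD of 3 libraries, and the y axes do not start at 0. Coding exons are lowest, and the 2 other classes highest, in shRNF113A cells given Cisplatin.

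The first comparison asked what Cisplatin does to these exons in control cells. Inclusion rose by at least 20 points at an adjusted p under 0.05 (a call) in 13 of 30940 events (0.042%) and fell in 11 (0.0356%), on 24 exons of 19 genes. From reads not divided by the lengths of the forms, 18 were higher and 3 lower. Over all 54944 skipped-exon events the shares were 0.0346% higher and 0.0291% lower. By the adjusted p alone, 74 frame-shifting events were higher and 31 lower, with 0.26% and 0.091% of all events. Median differences were 0.0163 points for frame-shifting and 0.0352 points for all events. Of the 74 higher events, 27 were on exons of NMD transcripts only, where 2 were lower, and 11 on coding exons, where 21 were lower.

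Long non-coding RNAs held the largest rises among exons with at least 50 reads of both forms in every library of the comparison. The 265-nt exon of LINC00511 (chr17:70416841-70417105, minus strand) was included at 18.6%, 18.0% and 24.2% in untreated control cells and at 62.6%, 44.7% and 48.5% with Cisplatin. This was a rise of 31.6 points (adjusted p = 0.0048), lost when any 1 library other than shControl + Cisplatin library b was left out (adjusted p 0.051 to 0.28). The 118-nt exon of SNHG17, a host gene of a small nucleolar RNA, went from 24%, 25.4% and 25.5% to 55.6%, 52.6% and 58.4%. Its rise of 30.6 points (adjusted p = 0.00032) was lost without shControl + Cisplatin library c (adjusted p = 0.066), and its skipping form also left out another exon of the main transcript.

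In C1orf52 a 127-nt exon known from non-coding transcripts rose from 36.9%, 56.6% and 37.6% to 71.9%, 69.3% and 70.5% (26.9 points, adjusted p = 0.041). The 163-nt coding exon of STX16, a SNARE protein of the trans-Golgi network, was at 30.0%, 35.2% and 28.3% without and at 60.4%, 62.1% and 50% with Cisplatin. It rose by 26.3 points (adjusted p = 0.019). The form without the exon, with the stop codon shown above, thus lost share. A 152-nt exon inside the 163-nt exon of STX16 rose as well, from 22.8% to 47.1% (adjusted p = 0.027). It has the same flanking exons and the same skipping reads, so its rise is not a separate measurement. The groups did not overlap for either exon. Each call was lost when any 1 of 5 libraries was left out, all but shControl library b, with adjusted p of up to 0.73 for C1orf52 and 0.46 for STX16. STX16 itself rose in expression by 0.80 on the log2 scale (adjusted p = 7.8e-06).

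Falls in control cells were led by SS18L1, FAM126A and REPIN1. The 185-nt untranslated exon of SS18L1, a subunit of the nBAF chromatin remodelling complex, went from 59.8%, 59.9% and 73.3% to 21.3%, 37.5% and 20.0%, a fall by 38.0 points (adjusted p = 0.018). Without any 1 library other than shControl + Cisplatin library b the adjusted p was 0.10 to 0.51, and a library had only 47 to 91 reads on it. In FAM126A, which encodes hyccin, a 296-nt exon (chr7:22986571-22986866, minus strand) fell from 96.4%, 85.8% and 89.5% to 63.4%, 55.1% and 63.1%. The difference was −30.0 points (adjusted p = 0.00058), lost without shControl library a (0.19) or c (0.051). A 215-nt exon inside it shares its skipping reads and fell by 33.4 points (adjusted p = 0.0009), with 0.24 and 0.051 without the same libraries. The 125-nt coding exon of the zinc finger gene REPIN1 went from 64.2%, 70.6% and 64.5% to 38.7%, 31.7% and 39.1% (−29.9 points, adjusted p = 0.017), and leaving out any library lost the call (0.12 to 0.24).

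The change in HNRNPH1 rested on many reads. HNRNPH1 is an hnRNP protein that binds G-rich RNA and regulates splicing. Its 139-nt coding exon (chr5:179046270-179046408, minus strand) was included at 94.2%, 93.6% and 93.9% in untreated control cells and at 74.7%, 69.1% and 72.0% with Cisplatin. Reads that skip it went from 91, 93 and 95 to 318, 490 and 436, and the fall by 21.9 points had an adjusted p of 7.3e-14. The groups lay far apart. The 92-nt poison exon shown above is the part of this exon behind an internal splice site and has the same skipping reads. Reads that lie inside the 92 nt count as inclusion of both exons, given at 90.2% and 93.9% in untreated control cells. The fall of the 92-nt exon by 29.5 points (adjusted p = 6.9e-14) is thus not a separate measurement. It does not show that the poison form itself was used less. No single library decided the call of the 92-nt exon (adjusted p at most 2e-07), which DESeq2 also made (adjusted p = 0.02). HNRNPH1 expression moved by −0.11 on the log2 scale (adjusted p = 0.28). Without the 139-nt exon, the annotated reading frame meets a stop codon 656 nt before the last junction.

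Other calls in control cells included, as higher, exons of STIL and DLGAP5, which act in centriole duplication and mitosis, and, as lower, exons of DIS3, a nuclease of the RNA exosome, and of the arginine methyltransferase PRMT2. These were taken from the list of calls after their values were seen. A 209-nt exon of STIL went from 7.97% to 36.3% (adjusted p = 0.0048) and a 91-nt exon of DLGAP5 from 18.2% to 43.4% (adjusted p = 0.00059). The 158-nt exon of DIS3 went from 87.3% to 60.9% (adjusted p = 0.011).

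The number of calls in control cells was 4 to 13 when 1 of the 6 libraries was left out, and 12 by limma and 2 by DESeq2.

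The second comparison asked what Cisplatin does in RNF113A-depleted cells. More exons were called there, 56 higher and 27 lower of 31857 events (0.176% and 0.0848%), on 79 exons of 68 genes, or 88 higher and 13 lower without division by form length. Over all 55799 events the shares were 0.177% and 0.0806%, close to those of the frame-shifting events. By the adjusted p alone, 303 were higher and 319 lower, beside 0.996% and 1.0% of all events. These numbers and those of control cells come from separate fits, and whether the 2 responses differ was tested by the interaction described further on.

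Classes of exons differed in their counts by direction. Coding exons were lower in 247 events and higher in 58, of 24721. Exons of NMD transcripts only were higher in 96 and lower in 27, of 2132. Untranslated exons were higher in 82 and lower in 17, of 1713, and exons of non-coding transcripts higher in 43 and lower in 16. The median difference was −0.099 points for coding exons, 0.20 for exons of NMD transcripts only and 0.36 for untranslated exons, beside −0.021 over all events. The levels limit the direction: before Cisplatin 86.9% of coding events in depleted cells were at 95% inclusion or more and could hardly rise, and 54.4% of those on exons of NMD transcripts only were at 5% or less and could hardly fall. Another 23.4% of the events on exons of NMD transcripts only were at 95% or more before Cisplatin. The classes were not tested against each other. The 3 shRNF113A + Cisplatin libraries had the fewest read pairs, and the part of depth in these counts was not tested.

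**Figure D2:**
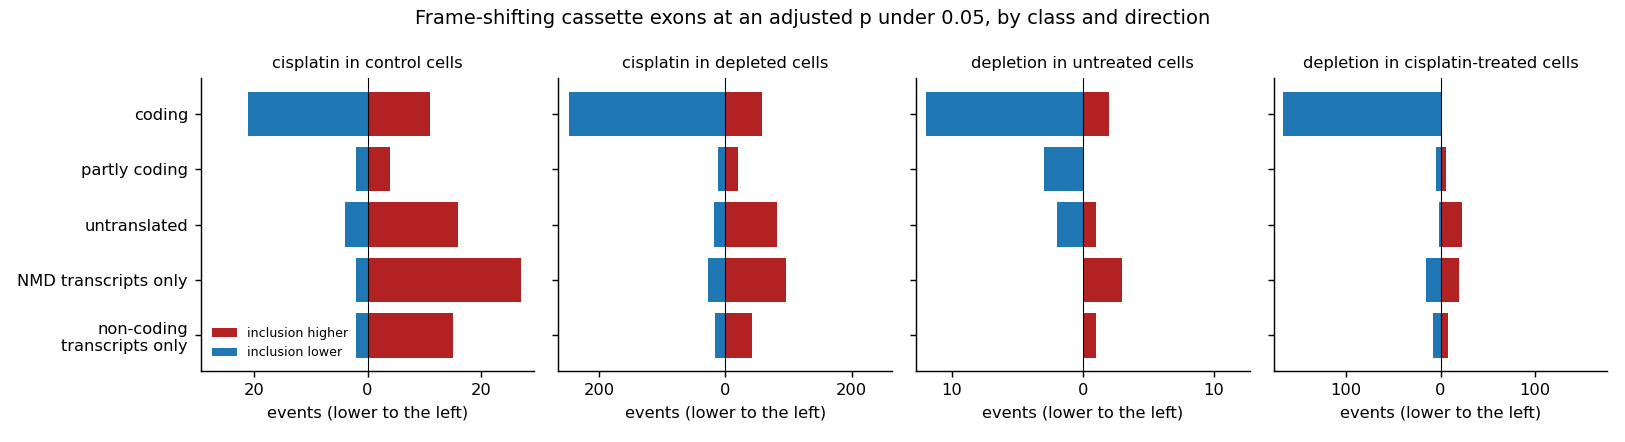
Number of frame-shifting events with an adjusted p under 0.05 in each comparison, by class of exon, with higher inclusion to the right and lower inclusion to the left of 0. The x axes differ between panels, and exons that are not in the annotation are not drawn. In depleted cells given Cisplatin, 247 coding events are lower and 58 higher, while 96 events on exons of NMD transcripts are higher and 27 lower.

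On the list of cell cycle genes 8 of 790 events were called, all rises, on exons of AURKA, CCNL1 and CCNT1. Over all events 0.177% were called higher. In AURKA, the mitotic kinase Aurora A, a 98-nt untranslated exon (chr20:54963743-54963840, minus strand) was at 40.1%, 33.2% and 32.5% in untreated depleted cells and at 73%, 68.9% and 76.7% with Cisplatin. The groups did not overlap, and the rise of 37.6 points (adjusted p = 0.00018) was kept whichever library was left out (adjusted p at most 0.014) and by DESeq2 (0.042). In control cells the same exon was at 40.6%, 37.1% and 42.2% without and at 66.7%, 64.4% and 54.6% with Cisplatin, 21.9 points with an adjusted p of 0.24. AURKA expression fell by 0.83 on the log2 scale in depleted cells (adjusted p = 4.2e-05). Other events on this exon, with different flanking exons, went from 25.4% to 46.5% (adjusted p = 0.0035) and from 27.1% to 49.8% (0.03). Cyclin L1 (CCNL1), a cyclin that partners kinases of the splicing machinery, had 4 called events, in part on overlapping exons, of 202, 77, 148 and 73 nt that rose to 41.2%, 50.9%, 60.0% and 59.3% from 17.4%, 23.04%, 31.45% and 29.8%, and the 164-nt exon of cyclin T1 (CCNT1), a cyclin of transcription elongation, went from 62.9% to 84.7%.

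Exons of TANGO2, METTL10, RANGAP1 and C1orf52 rose as well. The 115-nt coding exon of TANGO2 went from 34.2%, 34.6% and 38.4% to 68.1%, 63.0% and 82.8%, 35.6 points at an adjusted p of 0.0088. Its call was lost when any library but shRNF113A + Cisplatin library b was left out (0.051 to 0.18). METTL10, now EEF1AKMT2, methylates elongation factor eEF1A. Its 259-nt exon rose from 32.6%, 36.6% and 29.1% to 58.4%, 57.4% and 77.8% (31.7 points, adjusted p = 0.00011), and this call was kept without any 1 library (at most 0.017) but not by DESeq2 (0.21). RANGAP1 activates the GTPase of the nuclear transport factor Ran, and its 253-nt untranslated exon went from 54.5%, 49.5% and 47.6% to 78.1%, 82.2% and 81.8%. That difference of 30.1 points (adjusted p = 0.011) was lost without any 1 of the 6 libraries (0.064 to 0.18).

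Several exons moved in depleted cells as in control cells. In C1orf52 the 127-nt exon rose by 30.1 points, from 48.7%, 44.7% and 40.2% to 85.6%, 64.4% and 74.1% (adjusted p = 0.00062; 0.16 without shRNF113A + Cisplatin library a). STX16 rose by 23.6 points (adjusted p = 0.00087), SNHG17 by 23.1 (0.00074) and LINC00511 by 42.9 (0.00062). The 296-nt exon of FAM126A fell by 34.6 points, from 90.8%, 89.9% and 80.7% to 57.1%, 52.9% and 47.5% (adjusted p = 0.00016, at most 0.028 without 1 library), and its 215-nt part by 36.8 (0.00058; 0.057 without shRNF113A library a). REPIN1 fell by 28.6 points (0.0017), SS18L1 by 24.3 (0.037) and the HNRNPH1 exons of 139 and 92 nt by 15.2 (2.1e-10) and 21.5 (1.4e-10). These HNRNPH1 exons share reads of both forms, as given above. The interaction gave the exons of this paragraph adjusted p of 0.89 or more.

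RNH1, the cytosolic ribonuclease inhibitor, had a 65-nt untranslated exon (chr11:504824-504888, minus strand) that fell in depleted cells. It was at 74.9%, 78.3% and 73.4% without and at 40.1%, 49.2% and 31.9% with Cisplatin, −35.2 points at an adjusted p of 1.2e-06, with at most 0.00086 when 1 library was left out and 0.051 by DESeq2. Control cells went from 82.5%, 85.8% and 76.0% to 56.8%, 70.7% and 51.9%, −21.7 points at an adjusted p of 0.064. In both kinds of cells the treated libraries were all below the untreated ones.

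**Figure D3:**
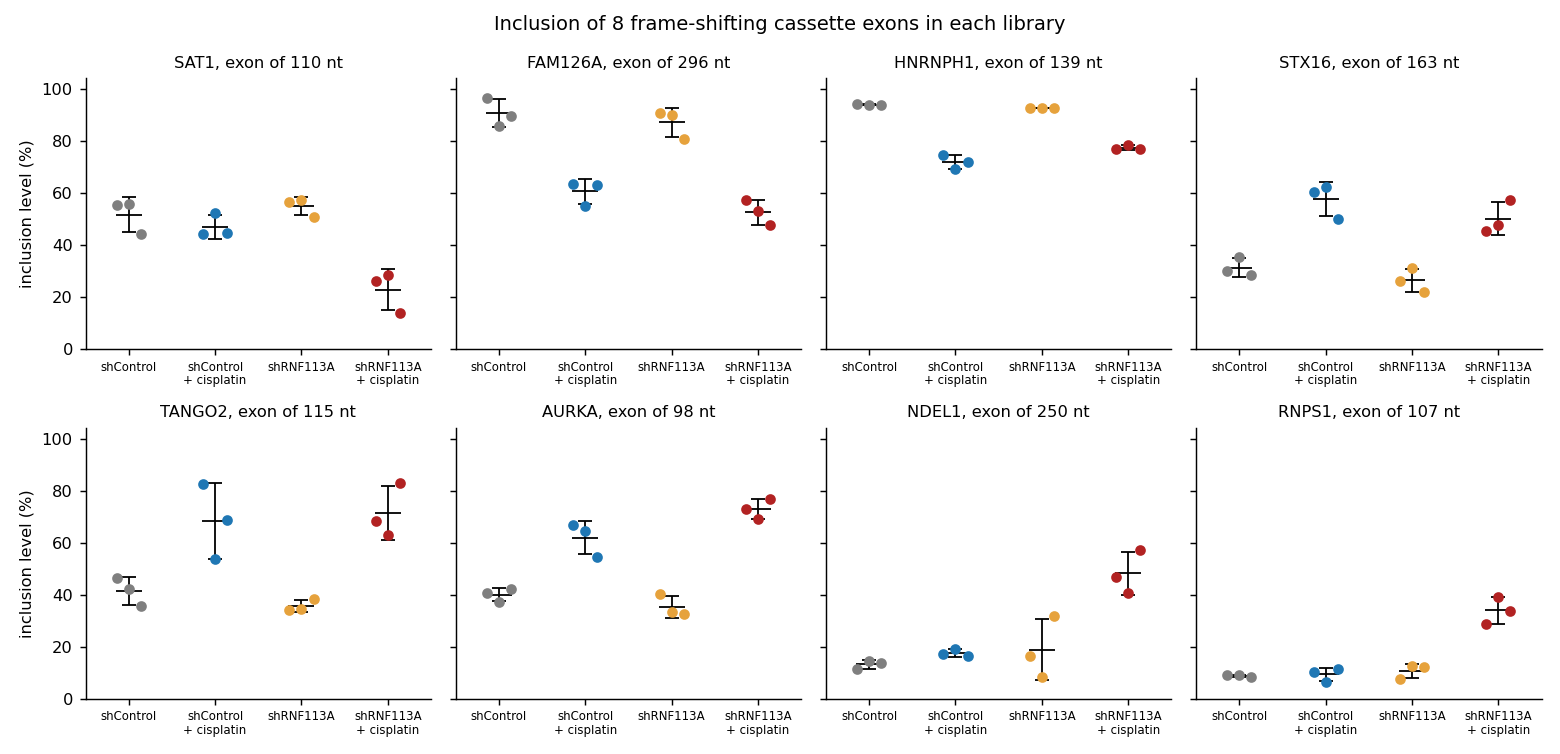
Inclusion level (%) of 8 frame-shifting exons in each library of the 4 groups. Points are libraries, black bars the mean and SD of 3 libraries. The SAT1 exon is low in shRNF113A cells given Cisplatin only (13.9% to 28.5%), and the NDEL1 and RNPS1 exons are highest there. The exons of FAM126A, HNRNPH1 and STX16 move with Cisplatin in both kinds of cells. Those of TANGO2 and AURKA passed the test in depleted cells and not in control cells, but neither was among the exons that passed the interaction test.

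The third comparison asked what depletion of RNF113A does without drug. Few exons were called, 0 higher and 5 lower of 31156 events, on 4 exons of 2 genes (2 and 2 without division by form length), with 0.0018% and 0.0126% over all 55585 events. By edgeR, 1124 events had an unadjusted p under 0.05, and by the adjusted p alone 7 were higher and 18 lower, beside 0.0486% and 0.054% of all events. DESeq2 and limma called none, with 740 and 2410 events at an unadjusted p under 0.05.

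CTNND1, the p120-catenin of adherens junctions, held 4 of the 5 calls. Its 119-nt exon (chr11:57556509-57556627, plus strand) was at 63.9%, 69.6% and 74.1% in control and at 45.3%, 38.4% and 39.7% in depleted cells, a difference of −28.03 points (adjusted p = 0.0014). Exons of 182 and 289 nt, which overlap each other, were lower by 25.1 (0.0047) and 24.5 points (0.0025). In all of them the skipping junction also leaves out another exon of the main transcript, so 1 change of the whole block gives several events. With Cisplatin the 119-nt exon was at 68.1%, 65.8% and 69.6% in control and at 57.2%, 51.8% and 53.9% in depleted cells, a difference of −13.5 points with an adjusted p of 0.45 (tested as an event with the same junctions and levels that differs in the outer end of a flanking exon).

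TAPBP, the peptide-loading factor tapasin of MHC class I, had the remaining call on a 35-nt exon. It went from 91.7%, 95.4% and 84.7% to 63.3%, 64.3% and 56.7%, a fall by 29.1 points (adjusted p = 0.0095), and its skipping form leaves out a neighbouring exon too. Against the nearest flanking exons the same 35 nt were at 91.2%, 95.9% and 95.5% and at 92.1%, 89.5% and 82.5% (adjusted p = 0.69). Each of the 4 exons lost its call without some single library, TAPBP without any but shControl library c (0.19 to 0.39), and the CTNND1 exons without shControl library c or any depleted library (0.06 to 0.35). No call was left once events that pass over another exon of the main transcript were set aside.

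The fourth comparison asked what depletion does in the presence of Cisplatin. Of 31749 events 10 were called higher and 9 lower (0.0315% and 0.0283%), on 19 exons of 18 genes (19 and 2 without division by form length), beside 0.0307% and 0.0343% of all 55338 events. By the adjusted p alone only 58 were higher and 197 lower, beside 0.201% and 0.613% of all events. Of 24430 events on coding exons 167 were lower and 2 higher, while untranslated exons were higher in 23 and lower in 2 events. The median difference was −0.21 points for coding exons and −0.15 over all events. This comparison shares its shRNF113A + Cisplatin libraries with the second one.

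Exons of NDEL1, TMEM156, RNPS1, FAM45A and EEF1D were among those that rose. NDEL1, a regulator of dynein, includes a 250-nt untranslated exon (chr17:8347245-8347494, plus strand) at 17%, 19.2% and 16.2% in control and at 46.8%, 40.6% and 57.0% in depleted cells given Cisplatin. The 30.6 points (adjusted p = 8.7e-06) were kept without any 1 library (at most 0.014). Untreated cells were at 11.3%, 14.6% and 13.6% and, depleted, at 16.5%, 8.31% and 31.6%, which overlap. RNPS1 binds at the exon junction complex and takes part in NMD. Its 107-nt exon was at 10.1%, 6.56% and 11.2% in control and at 28.7%, 39.2% and 33.8% in depleted cells (24.6 points, adjusted p = 0.0011, at most 0.046 without 1 library), and untreated cells of both kinds were at 12.4% or less.

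A 218-nt exon of TMEM156 went from 55.8%, 54.9% and 54.5% to 70.5%, 89.2% and 79.7% (24.8 points, adjusted p = 0.012). This call was lost without shControl + Cisplatin library a or c or shRNF113A + Cisplatin library b or c (0.12 to 0.49). In FAM45A, now DENND10, a 259-nt exon went from 24.3%, 19.8% and 29.3% to 46.7%, 44.8% and 50.5% (22.9 points, adjusted p = 0.01), lost without any library but shControl + Cisplatin library c (0.069 to 0.27). FAM45A has a near-identical copy elsewhere in the genome, and how its reads were shared is uncertain. A thinly read 103-nt untranslated exon of EEF1D, a subunit of the elongation factor eEF1 complex, with 22 to 114 reads, went from 39.1%, 31.5% and 64.6% to 84.7%, 82.8% and 84.0% (38.8 points, adjusted p = 0.00087; 0.24 without shControl + Cisplatin library b). In an event with another downstream exon the same 103 nt were rarely included, as given further below.

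SAT1 encodes the acetyltransferase that starts the breakdown of the polyamines spermidine and spermine, and its 110-nt poison exon was the 1 event called by the interaction test described next. Inclusion was 55.3%, 55.6% and 44.1% in untreated control cells and 44.2%, 52.3% and 44.4% with Cisplatin. Depleted cells were at 56.5%, 57.2% and 50.8% without drug and at 26.1%, 28.5% and 13.9% with it. The last group lay below all 9 other libraries.

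Depletion lowered SAT1 exon inclusion under Cisplatin by 24.1 points (adjusted p = 2.7e-05), and Cisplatin lowered it in depleted cells by 32.0 points (adjusted p = 6.2e-15, with 0.026 by limma and 0.079 by DESeq2). In control cells Cisplatin moved it by −4.75 points (0.71), and without drug depletion moved it by 3.13 points (0.71). Raw skipping reads were 1198, 1920 and 1686 in control and 1320, 1201 and 1919 in depleted cells given Cisplatin, while inclusion reads were 2396, 5318 and 3399 and 1179, 1211 and 785. The 2 groups thus overlapped in raw skipping reads and not in raw inclusion reads. These counts were not scaled to depth. Reads in all events numbered 45275313 to 53723253 in the control libraries and 31585052 to 35844090 in the depleted ones. The overlap therefore does not show that the skipping form stayed level. SAT1 expression rose with Cisplatin by 1.52 on the log2 scale in control and by 1.58 in depleted cells. Without shRNF113A + Cisplatin library c the fall upon depletion was 19.6 points (adjusted p = 0.011), and with all libraries limma gave 0.097 and DESeq2 0.27.

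The interaction of Cisplatin and depletion was tested on 40856 events with enough reads in all 12 libraries, 22981 of them frame-shifting. SAT1 was the only event called, 1 of 40856 (0.00245%). Its response to Cisplatin was 27.2 points lower in depleted than in control cells (adjusted p = 0.0015). The call was lost without shControl library c (−23.4 points, 0.11) or shRNF113A + Cisplatin library c (−22.8 points, 0.21), and DESeq2 gave an adjusted p of 1. By the adjusted p alone 6 frame-shifting events passed, beside 0.0245% of all events, and 1143 had an unadjusted p under 0.05.

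The largest fall in depleted cells given Cisplatin belonged to an event that leaves out more than 1 exon. NOP56 is a core protein of box C/D small nucleolar ribonucleoproteins. For its 116-nt poison exon the table gave 96.0%, 97.8% and 98.7% in untreated depleted cells and 34.0%, 37.2% and 26.7% with Cisplatin, a fall by 64.9 points (adjusted p = 6.7e-35). In control cells the levels were 100%, 97.3% and 96.2% and 83.6%, 83.8% and 87.4%. Depletion under Cisplatin lowered it by 52.3 points (adjusted p = 1.7e-15), and both calls were kept without any 1 library. The interaction, which tests the log ratio of the forms, gave an adjusted p of 0.89. The skipping junction of this event also leaves out the 138-nt coding exon before it, which keeps the frame. It was supported by 0 to 3 reads in each untreated library, by 17, 8 and 14 in control cells with Cisplatin and by 173, 131 and 298 in depleted cells with Cisplatin.

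Measured from the 138-nt exon, the same 116 nt of NOP56 were included at 4.89%, 5.67% and 5.22% in untreated depleted cells and at 4.78%, 4.58% and 5.77% with Cisplatin. The difference of −0.22 points (adjusted p = 0.89) was within the spread of the libraries. The 138-nt exon itself went from 99.9%, 99.9% and 100% to 93.9%, 95.4% and 90.3% (−6.71 points, adjusted p = 7.8e-41). NOP56 expression was 0.66 higher on the log2 scale (adjusted p = 0.0055).

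**Figure D4:**
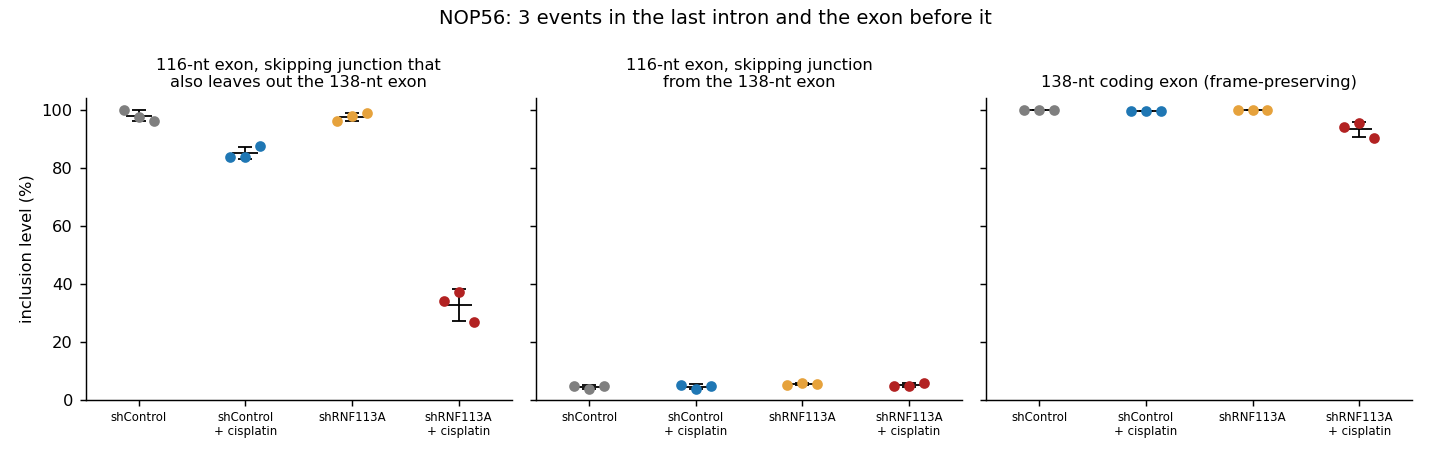
Inclusion level (%) of 3 NOP56 events in each library. Points are libraries, black bars the mean and SD of 3 libraries. The 116-nt exon falls to 26.7% to 37.2% in shRNF113A cells given Cisplatin only where the skipping junction also leaves out the 138-nt exon, and stays between 3.58% and 5.77% where it does not.

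COASY, which makes the last steps of coenzyme A synthesis, and SCAMP3, a membrane carrier protein, were alike in this. The 65-nt coding exon of COASY fell upon depletion under Cisplatin from 94.5%, 96.2% and 88.9% to 72.3%, 70.4% and 63.9% (−24.3 points, adjusted p = 5.8e-07), in an event that passes over another exon. Against its nearest flanks it was at 99.4% or more in every library. The 89-nt exon of SCAMP3 went from 87.3%, 85.8% and 89.3% to 60.8%, 69.1% and 58.7% (−24.6 points, adjusted p = 0.00063; 0.053 without shControl + Cisplatin library c) and against its nearest flanks from 100% to 99.4% (adjusted p = 0.48). In CLK1, a kinase of SR proteins, the 167-nt coding exon went from 100% in each library to 88.0%, 96.4% and 88.3% (adjusted p = 0.00041) when passing over another exon, and from 96.7% to 94.4% (adjusted p = 0.7) when not.

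Among the calls, events that pass over another exon of the main transcript numbered 6 of 24 and 18 of 83 for Cisplatin in control and depleted cells, 5 of 5 for depletion alone and 6 of 19 for depletion under Cisplatin. Among all tested frame-shifting events their share was 30.6% to 32.2%. Events whose exon overlaps another exon of a coding transcript made up 41.7%, 47.0%, 60% and 42.1% of the calls in the same order. Among the tested events they made up 28.65% to 29.06%. The skipping junction was annotated for 95.8%, 89.2%, 80% and 68.4% of the calls in the same order, against 34.2% to 37.0% of the tested events. Skipping gave a stop codon over 50 nt before the last junction for 80.7% of coding events tested upon Cisplatin in control cells. It did so for 2 of 4 coding events called higher there and 4 of 6 called lower. In depleted cells it was 81.6% of the tested ones, 5 of 10 called higher and 8 of 10 called lower. A difference of 20 points is possible only where the mean inclusion of the groups lies between 10% and 90%, as it did for 7.35% to 7.74% of the frame-shifting events. Of those, 1.05%, 3.49%, 0.207% and 0.780% were called, beside 0.756%, 3.00%, 0.163% and 0.743% of all skipped-exon events in that range.

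Gene groups were read from 8 lists with 748 genes. Splicing regulators (SR, hnRNP and related proteins) had 5 events higher and 6 lower at the adjusted p upon Cisplatin in control cells, of 282, and 9 higher and 22 lower in depleted cells, of 307. The shares over all events were 0.26% higher and 0.091% lower in control cells and 0.996% and 1.0% in depleted cells. The 268-nt exon of SRSF6, an SR protein, rose there from 35.9% to 56.9% (adjusted p = 7.4e-05), and the 73-nt exon of RBM39, an RNA-binding protein of the early spliceosome, from 14.5% to 37.2% (6.6e-11). The 62-nt exon of ACIN1, a protein of the exon junction complex that is also cleaved in apoptosis, fell from 55.2% to 31.6% (0.0053). The median over the list was −0.053 points, beside −0.021 over all events. Upon depletion under Cisplatin 2 were higher and 4 lower of 314, beside 0.201% higher and 0.613% lower over all events. Depletion alone moved no event of any of the 8 lists at the adjusted p by edgeR, limma or DESeq2, with 0 to 37 events of a list at an unadjusted p under 0.05 by edgeR.

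Upon Cisplatin, spliceosome genes had 2 events higher and 0 lower of 248 in control cells and 7 higher and 2 lower of 320 in depleted cells, beside those shares of all events. PRPF38B, a spliceosomal protein, had the largest of them. Its 53-nt exon was at 4.30%, 2.19% and 0.906% in untreated depleted cells and at 22.4%, 31.5% and 21.9% with Cisplatin (22.8 points, adjusted p = 1.2e-10), and DESeq2 called it as well (0.0003). Without shRNF113A + Cisplatin library b the difference was 19.6 points, just under the limit. Of the NMD factors, RNPS1 was higher and RBM8A, a core protein of the exon junction complex, lower, both upon Cisplatin in depleted cells and upon depletion under Cisplatin. These 2 comparisons share the treated depleted libraries. Upon Cisplatin in control cells the NMD factors and the splicing kinases had 0 events at the adjusted p by edgeR, limma or DESeq2, with 4 and 3 at an unadjusted p under 0.05. The only splicing kinase at the adjusted p elsewhere was CLK1. Upon depletion under Cisplatin, spliceosome genes had 1 event higher and 4 lower of 304, beside 0.201% and 0.613% of all events. List medians upon Cisplatin in depleted cells ran from −0.327 points for splicing kinases to −0.00747 for translation genes.

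DNA repair genes gave 4 events higher and 0 lower of 734 in control cells and 6 higher and 2 lower of 765 in depleted cells upon Cisplatin, beside the shares of all events given above. The list's largest change was in POLL, DNA polymerase lambda, whose 163-nt exon went from 77.4%, 68.2% and 70.3% to 100%, 97.6% and 96.3% in control cells (26.0 points, adjusted p = 0.017). That event passes over 4 other exons and was lost without any 1 library (0.13 to 0.28), and against its nearest flanks the exon was at 93.3% and 95.9% (adjusted p = 0.71). Upon depletion under Cisplatin 1 event was higher and 4 were lower of 753, beside 0.201% and 0.613% of all events. RNF8, a ubiquitin ligase of damage signalling, had 3 frame-shifting exons, and none of them passed in any comparison, with adjusted p of 0.54 or more.

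Cell cycle genes had 5 events higher and 0 lower in control cells, of 744, and 15 higher and 6 lower in depleted cells, of 790, where 8 rises were calls. Upon depletion under Cisplatin none passed by edgeR or DESeq2 and 5 by limma, with 58 at an unadjusted p under 0.05 by edgeR. Upon Cisplatin, translation genes had 5 higher and 1 lower of 455 in control cells but 13 and 20 of 563 where RNF113A was depleted. Upon depletion under Cisplatin they had 8 and 17 of 569, the largest number of any list there, not scaled by list size or read depth. The shares over all events upon Cisplatin were 0.26% higher and 0.091% lower in control cells, and 0.996% and 1.0% in depleted cells. Upon depletion under Cisplatin those shares were 0.201% and 0.613%. Apoptosis and p53 genes had 0 of 195 upon Cisplatin in control cells (11 at an unadjusted p under 0.05, 2 by limma, 0 by DESeq2). They had 3 higher and 3 lower of 202 in depleted cells, and 4 lower of 228 upon depletion under Cisplatin. These 4 were in SAT1, MDM2 and ACIN1, which is also on the list of splicing regulators. For MCL1, an antiapoptotic BCL2 protein, the 248-nt exon whose loss gives the short form was at 93.1% to 96.4% in untreated and at 97.3% to 98.2% in treated depleted cells. That rise of 3.27 points had an adjusted p of 0.042, which was 0.065 to 0.55 when 1 library was left out, and no other comparison passed. MCL1 expression rose with Cisplatin by 0.90 on the log2 scale without and by 0.82 with depletion.

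Expression of the genes that hold these exons was compared with their splicing. Of 8955 host genes 8612 could be tested. Cisplatin changed 507 up and 597 down at least 2-fold in control cells, and 550 up and 808 down after RNF113A depletion. Depletion itself changed 115 up and 176 down without drug and 146 up and 237 down with it. Over all 15352 genes tested the shares were 9.16% and 10.6%, 11.6% and 11.5%, 3.7% and 4.96%, and 6.9% and 5.42%. Those of host genes were lower, 5.89% and 6.93%, 6.39% and 9.38%, 1.33% and 2.04%, and 1.70% and 2.75%. A host gene needed an event with at least 20 reads in each library of a comparison, a minimum that the other genes did not have to meet. The part of this filter in the lower shares was not tested. Of genes with a called exon, 1 of 19 was higher at least 2-fold and 0 lower upon Cisplatin in control cells, 4 and 1 of 67 in depleted cells, 0 and 0 of 2 upon depletion, and 1 and 0 of 18 under Cisplatin.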

How the data were processed

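RNA was sequenced as stranded TruSeq mRNA libraries (2 × 76 bases, 2 runs). According to the methods and the processing notes, the authors removed ribosomal, transfer and mitochondrial reads, aligned to hg19 with STAR 2.5.2b and ran rMATS on Ensembl annotation. The values used are the raw read counts of inclusion (junctions and exon body) and skipping forms that the authors deposited for each event, and their raw STAR counts per gene. Inclusion levels (reads per form length, in %) were recomputed; exon length plus 72 and 72 nt were the form lengths. The authors' deposited p-values, FDR and inclusion columns were not used.

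Events were tested on the whole skipped-exon table with edgeR 4.0.16 in R 4.3.3 (quasi-likelihood, a term per library, form by group, Benjamini-Hochberg over all events), and genes with TMM scaling. The model tests the log ratio of forms, and a call also needs a difference of 20 points. limma 3.58.1 and DESeq2 1.42.0 were alternatives. P-values measure the spread between the 3 biological replicates of a group. Libraries are unnamed in the splicing tables and are called a, b and c in table order. On simulated data for depletion under Cisplatin (55338 events, 200 changed) 75 passed the adjusted p, 72 were called, and no unchanged event was. All simulated events had the same fixed dispersion, and the changed ones had intermediate inclusion and many reads. Events with uneven spread between replicates were therefore not covered.

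Exons named are, per comparison, the 4 largest rises and falls among non-overlapping calls with at least 50 reads in every library, the exons of SAT1, RNF8 and MCL1 (NUPR1 had none, and 1 further gene is not reported here), and the largest change of each gene list. Members, lists and rule were chosen with earlier results of these data known. Equally numbered libraries correlated between untreated and treated control cells (r of 0.63, 0.73 and 0.47 over 9595 genes). The labels do not name them as pairs, and libraries of unequal number were not compared in this way. In depleted cells r was 0.40, −0.084 and 0.29, and upon depletion −0.19 to 0.13. The gene test reported has no block, and a fit with the replicate number as a block was an alternative.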

Additional observations from a re-analysis of the deposited data

Results flagged for a closer look

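At 6 frame-shifting exons the response to Cisplatin differed between depleted and control cells by the interaction test of edgeR. The SAT1 exon of 110 nt, described above, had a difference between the 2 responses of −27.22 points (adjusted p = 0.0015). A 133-nt exon of NOP56 annotated in non-coding transcripts went from 4.56% to 3.98% in control and from 6.86% to 23.3% in depleted cells, a difference of 17.04 points (adjusted p = 0.00059). It overlaps the small nucleolar RNA gene SNORD110, reads from which count as inclusion if they lie in the exon, and their part in the result was not tested.

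The 70-nt coding exon of RPL5, a protein of the large ribosomal subunit, stayed at 99.8% and 99.6% in control cells and went from 99.7% to 96.0% in depleted cells (−3.53 points, adjusted p = 0.0013). RPL5 has many processed pseudogenes, and how reads were shared with them is uncertain. The 106-nt coding exon of HACL1, a lyase of peroxisomal fatty acid oxidation, went from 97.0% to 100% and from 99.6% to 92.1% (−10.5 points, adjusted p = 0.022). EEF1D had exons of 197 nt and 103 nt with differences of 1.751 points (adjusted p = 0.025) and 1.054 points (adjusted p = 0.019), both at 3.01% inclusion or less. These 2 events have the same skipping junction and skipping reads, so they are not separate measurements. The 103-nt exon is the one given above for depletion under Cisplatin, here in an event with another downstream exon. DESeq2 gave none of the 6.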

How the results depend on the processing

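No called exon among those named changed direction in any alternative run, and over all values of named exons 846 kept and 132 lost their side of the threshold. Small differences that were not called, such as those of RNF8 exons and of SAT1 upon depletion without drug (−0.660 to 5.15 points without 1 library), did change sign. Calls in control cells upon Cisplatin (24) were 42 at a limit of 10 points, 105 without a limit, 12 by limma, 2 by DESeq2 and 4 to 13 without 1 library (4 without shControl library a, 13 without b, 5 without c, and 8, 13 and 5 without shControl + Cisplatin a, b and c). In depleted cells (83) they were 195, 622, 20 by DESeq2 and 50 to 80 (51 without shRNF113A library a, 50 without shRNF113A + Cisplatin library c). Upon depletion (5) they were 12, 25, 1 with 1 event per exon, 0 by limma and DESeq2, 0 without events that pass over another exon (chosen after seeing the data) and 0 to 4 without 1 library (1 without shControl library c, 0 without any depleted library). Under Cisplatin (19) they were 61, 255, 12 with 1 event per exon, 2 by DESeq2 (22054 adjusted p-values missing) and 9 to 17 (11 and 10 without shControl + Cisplatin a and b, 9 without shRNF113A + Cisplatin c). The interaction call (1) became 6 without a limit, 0 by DESeq2 and 0 to 1. Raw reads not divided by form lengths gave 18 higher and 3 lower, 88 and 13, 2 and 2, and 19 and 2, beside 13 and 11, 56 and 27, 0 and 5, and 10 and 9. Read minimums of 10 or 50 and none stayed within 1.5 times.

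Host gene counts were 1110, 1367, 295 and 392 with the replicate block, beside 1104, 1358, 291 and 383, and no count moved by over 1.5 times. No paired analysis of splicing was made, because the tables do not name their libraries and their order was not inferred from read totals. At a median of 206 to 235 reads, changes below the limit are poorly resolved.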
